A study of Mus musculus with 28 samples.

Results

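Ribosome run-off in adult axons was measured in 2 sequencing libraries, 1 prepared with run-off and 1 without, from the superior colliculus (SC) of adult mice. The 3019 mRNAs described here are the genes with at least 50 reads in the SC library without run-off, out of 23995 genes listed and 5871 with a read in either library. Expression after run-off played no part in that choice. Both libraries came from Cre-positive C57BL/6 animals that carried the RiboTag knock-in allele and the Pax6-alpha-Cre transgene, pooled over several colliculi. In these animals retinal progenitors and their progeny carry a ribosomal protein tagged with HA, and the tagged ribosomes recovered from the SC are those in the axons of retinal ganglion cells (RGCs), the only retinal neurons that project there. A Cre-negative animal lacks the tagged protein, so what its SC yields in the same immunoprecipitation is background. There were 2 Cre-positive and 2 Cre-negative adult SC libraries of the standard protocol, used here for comparison, and a retina library with and without run-off from Cre-positive adults.

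Run-off separates mRNAs that are being translated from those that are merely held by the beads or by a stalled ribosome. Harringtonine stops ribosomes at the start codon and 4E1RCat blocks the assembly of the cap-binding complex, so no new ribosome enters elongation. Ribosomes already on the coding sequence, supplied with reticulocyte lysate, can finish and leave. An mRNA that was carried into the immunoprecipitate by an elongating ribosome is then expected to go missing, whereas an mRNA held by a stalled ribosome or bound unspecifically can stay. The lysate for run-off was incubated without cycloheximide, the elongation inhibitor that otherwise fixes ribosomes in place, and received it afterwards.

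On genes, 3262914 reads were counted without run-off and 349395 with it, or 10.7% as many. The amount of each library loaded on the sequencer followed the amount of amplified cDNA, so this difference in depth carries the difference in cDNA. Less RNA on each ribosome and fewer axons in a sample cannot be told apart from such values. Reads fell on 5354 genes without run-off and on 2764 genes with it. The 3019 mRNAs took 99.1% of the reads without run-off and 91.5% of the reads with it. There was 1 library per condition, and differences between the SC libraries therefore had no replicate check and were given no p-value. Intervals printed with a ratio are exact 95% binomial intervals for the counts of the 2 libraries, and cover counting error only.

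Nearly every mRNA had fewer raw reads with run-off. Of the 3019, 2964 had fewer (98.2%), 1 had the same number and 54 had more. Since the depth differed, the reads of each mRNA were also taken as a share of all reads on genes (CPM) and compared as the ratio of the library with run-off to the library without. On that scale a ratio of 1 is an mRNA that kept its share of the library. No read at all was left for 1434 mRNAs (47.5%). Counting these, 2222 mRNAs (73.6%) had a ratio below 0.5, and 788 of them still had reads. A ratio between 0.5 and 2 was found for 457 mRNAs (15.1%), and 340 (11.3%) had a ratio above 2. Among the 1434 mRNAs with no read left, 54 had so few reads to begin with that a limit of 3 counts did not put them below 0.5.

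The spread was wide in both directions. Over the mRNAs that kept a read, the log2 ratio had a median of -0.98 and an SD of 2.66 across genes, the middle 50% of the ratios ran from 0.0925 to 1.68, and the highest was 40.3. With a value of 3 reads in place of 0, the median log2 ratio over all 3019 was -2.17. When the libraries were scaled to the median ratio of mRNAs with reads in both, every log2 ratio rose by 0.98, and under edgeR's TMM scaling every log2 ratio dropped by 0.21. The ratios given in the following refer to total reads on genes. At the limit of the choice, 12 genes had exactly 50 reads without run-off, of which 7 had none with it, and 25 genes had 49 reads, of which 13 had none.

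**Figure D1:**
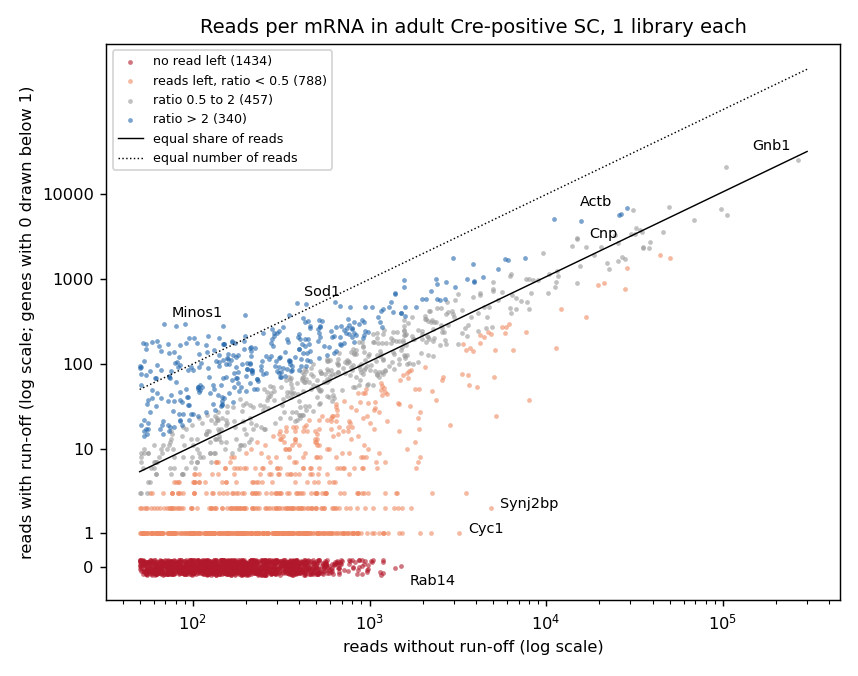
Reads with run-off (y axis, log scale) against reads without run-off (x axis, log scale) for the 3019 mRNAs, 1 point per mRNA, coloured by what was left after run-off; genes with 0 reads with run-off are drawn in a band below 1. Nearly all points lie under the dotted line of equal reads, the abundant mRNAs follow the solid line of equal share down to about 1000 reads, and a separate band with 0 to 3 reads runs below them, in which Cyc1 and Synj2bp had 3202 and 4877 reads without run-off.

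Whether an mRNA was lost went with how many reads it had. No read was left for 381 of 630 mRNAs with 50 to 99 reads without run-off (60.5%) and for 487 of 790 with 100 to 199 reads (61.6%). The share was 51.9% at 200 to 499 reads, 24.9% at 500 to 999 reads and 6.29% at 1000 to 1999 reads. None of the 180 mRNAs with more was lost. The kept share was 7.94% of the mRNAs with 50 to 99 reads and 66.7% of the 84 with at least 5000. The share with a ratio above 2 stayed between 9.62% and 15.6% in every range of reads. An mRNA with 50 reads would have had 5.35 reads with run-off at equal share, and an mRNA with 500 reads 53.5.

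Larger mRNAs were also found in the lower band. Of the 701 mRNAs with at least 500 reads without run-off, 100 had no read and another 100 had 1 to 3 reads with run-off, together 28.5%. Of the same 701, 267 (38.1%) had a ratio between 0.5 and 2, 144 had a ratio below 0.5 with more than 3 reads, 90 a ratio above 2, and none a ratio above 8. The mRNAs with at least 500 reads were thus most numerous near equal share and near 0. There were 24 mRNAs with at least 1000 reads without run-off and 1 to 3 with it. Beside Cyc1, the cytochrome c1 subunit of complex III, with 1 read left of 3202, the largest were Synj2bp, an outer mitochondrial membrane protein, with 2 of 4877, and Enah, an actin regulator of growth cones, with 3 of 3514. The last pair was named after its values were seen.

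**Figure D2:**
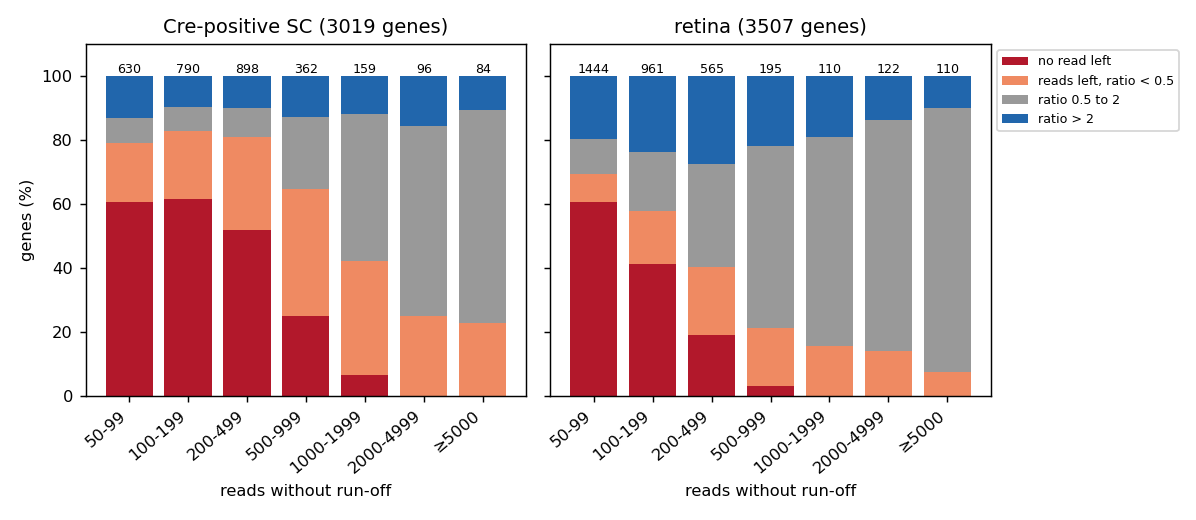
Share of genes (y axis, %) with no read left, with reads left but a CPM ratio below 0.5, with a ratio of 0.5 to 2 and with a ratio above 2, by the number of reads without run-off (x axis), in Cre-positive SC (left) and retina (right), with the number of genes above each bar. In both tissues 60.5% of the genes with the fewest reads and none of those with the most had no read left.

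The most abundant mRNAs stayed. Gnb1, a beta subunit of heterotrimeric G proteins (ENSMUSG00000029064, GRCm38 chr4:155491361-155559269), had 266620 reads without and 25183 with run-off, a ratio of 0.882 (0.871 to 0.894). It was the top gene in both libraries, with 8.17% of the reads without and 7.21% with run-off. Sfxn5, a mitochondrial carrier of the sideroflexin family, went from 104452 to 21294 reads and had the highest ratio among the 10 mRNAs with the most reads, 1.90 (1.88 to 1.93). Otub1, a deubiquitinating enzyme, kept 7207 of 49789 reads, a ratio of 1.35. These 3 mRNAs lost most of their raw reads and kept or raised their share.

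Other abundant mRNAs lost part of their share. Actr2, a subunit of the Arp2/3 complex that branches actin filaments, went from 105928 to 5673 reads, a ratio of 0.50 (0.487 to 0.514) that lies on the limit. Gsk3b, a kinase that acts on microtubule-associated proteins, kept 1923 of 44393 reads, a ratio of 0.405. Impact, a regulator of the translational control kinase GCN2, kept 1787 of 50477 reads and had the lowest ratio of the 10, 0.331. The ratio was 0.646 for Gnl3l, 0.678 for Inpp4a, 0.724 for Ppp1r16b and 0.663 for Gid4. Of the 20 mRNAs with the most reads, 17 had a ratio between 0.5 and 2.

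The same abundant mRNAs were found where no tagged ribosome was present. All 20 were at 1 FPKM (fragments scaled to transcript length and depth) or more in both Cre-negative SC libraries and 19 at 100 FPKM or more, and the mean was higher in Cre-negative than in Cre-positive SC for 12. Gnb1 stood at 36690.4 and 64219.5 FPKM in the Cre-negative libraries and at 14989 and 43481 FPKM in the Cre-positive libraries. Of the 20, 19 were also among the 100 genes with the most reads in retina without run-off. How far background RNA on the beads took part in the reads kept with run-off was not tested.

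Among the 1434 mRNAs with no read left, Rab14, a small GTPase of endosomal traffic (ENSMUSG00000026878, GRCm38 chr2:35180205-35201120), had the most reads without run-off, 1508. With the limit of 3 counts its share was at least 53.8-fold lower with run-off. Nmnat2, the NAD-synthesising enzyme whose supply keeps axons from degenerating (ENSMUSG00000042751, GRCm38 chr1:152954993-153119261), went from 1168 reads to 0, at least 41.7-fold lower. Rbfox1, a neuronal splicing regulator, went from 986 to 0, and Pnck, a kinase of the calmodulin-dependent family, from 1017 to 0. The others of the 12 largest were Camta2, a transcription activator, with 1397 reads, the DNA exonuclease Trex1 with 1197, Dbndd2 with 1187, the phosphatase Pgp with 1186, Fam196a with 1153, the nuclear exosome cofactor C1d with 1052, the acyl-CoA thioesterase Acot7 with 1034 and the antisense RNA 8030443G20Rik with 984. All 12 were at least 35.1-fold lower. Reads of an antisense RNA cannot be told from those of the gene on the other strand, as the sources do not state a strand-specific count.

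The 12 mRNAs with the highest ratios were all small without run-off, with 52 to 95 reads, and had more raw reads with run-off than without. Minos1, an organizer of mitochondrial cristae (ENSMUSG00000050608, GRCm38 chr4:139101814-139131113), went from 69 to 298 reads, a ratio of 40.3 (30.9 to 53.2). Golga2, a Golgi matrix protein, went from 90 to 294 reads, and Clasp2, a microtubule plus-end protein, from 54 to 174. The remaining 9 were 6430548M08Rik, AI837181, Haghl, Rbbp6, Zcchc24, Dohh, Ddb1, Rrp7a and Bcl7b, with ratios from 19.8 to 33.0. In the Cre-positive SC libraries of the standard protocol 8 of the 12 were at 0 FPKM in both, so their level without run-off rested on few fragments there as well.

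The mRNAs were then grouped by the function of their product. Of 43 lists, 37 had at least 5 of the 3019 mRNAs, and 612 mRNAs were in at least 1 list. None of the 37 lists was lost as a whole and none kept a read for every member. In 7 lists the share with no read left was above the 47.5% of all 3019, and in 30 it was below. The summed reads of a list, taken as CPM, had a ratio between 0.5 and 2 in 30 lists, below 0.5 in 6 and above 2 in 1. A summed ratio follows the most abundant members, and lists also differed in the reads of their members, with a median of 216 reads without run-off over all 3019 mRNAs, from 140 for the proteasome to 2811 for the 14-3-3 proteins among the lists.

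**Figure D3:**
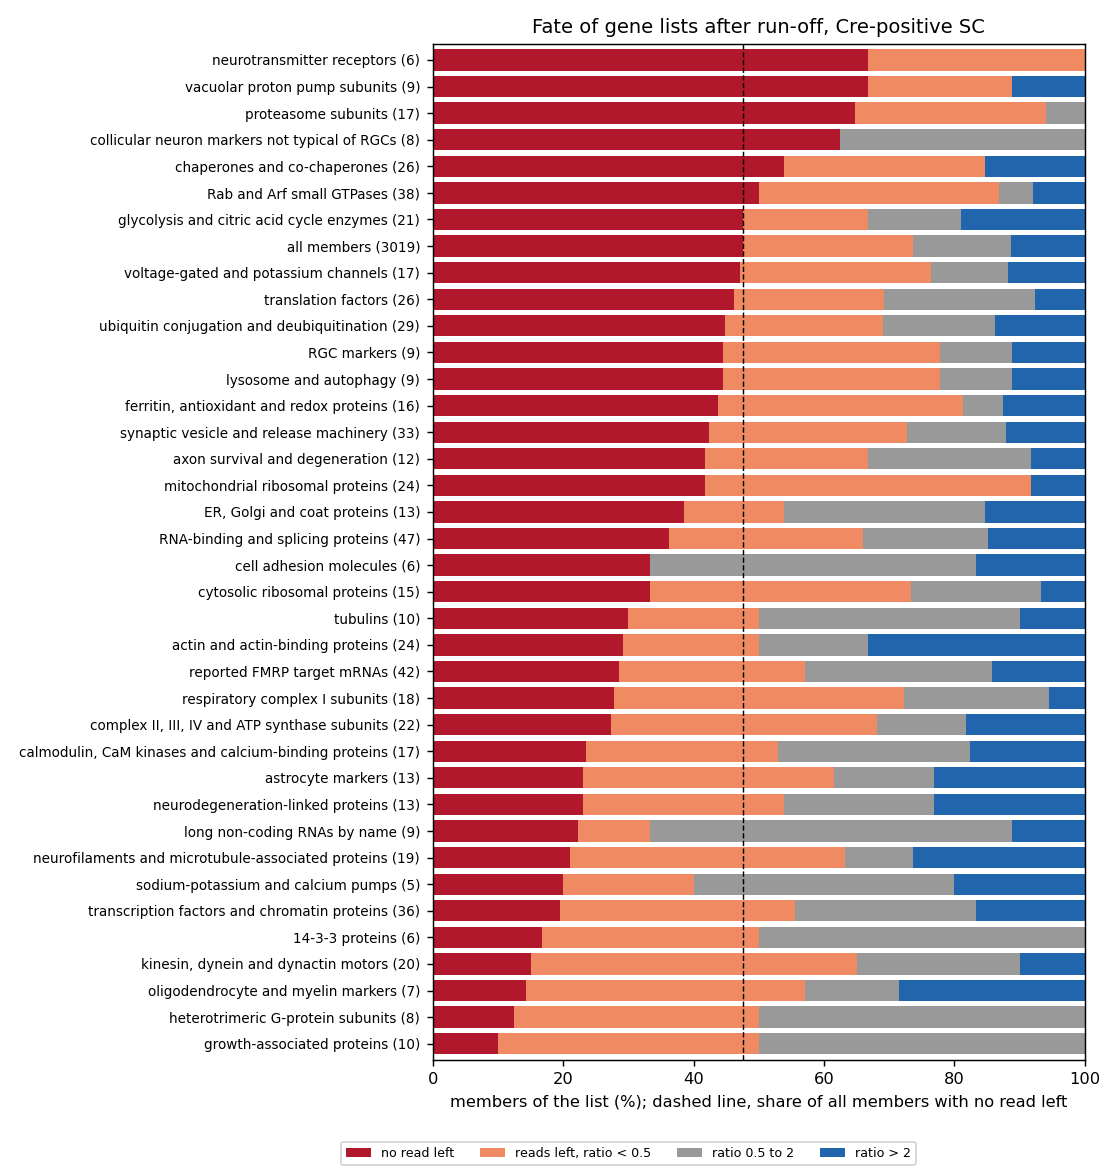
Share of the members of each list (x axis, %) with no read left, reads left but a CPM ratio below 0.5, a ratio of 0.5 to 2 and a ratio above 2, for the 37 lists with at least 5 members and for all 3019 mRNAs; the number of members is in parentheses and the dashed line marks 47.5%. Neurotransmitter receptors, vacuolar proton pump subunits and proteasome subunits are at the top, and growth-associated proteins and G-protein subunits at the bottom.

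Proteasome subunits, the parts of the main protease of the cell, lost the most of the larger lists. Of 17 members, 11 had no read left, 5 had a ratio below 0.5 and 1 was kept. Together they went from 3823 to 27 reads, a ratio of 0.0660. The core subunit Psmb1 kept 1 of 573 reads, Psma6 none of 503 and Psmb4 3 of 419, while Psma1 kept 16 of 121, a ratio of 1.23. The median member had 140 reads, fewer than the 216 of all mRNAs. In the range of at least 200 reads, 4 of 7 proteasome subunits had no read left, against 566 of all 1599 mRNAs in that range (35.4%).

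Ubiquitin enzymes, which mark and unmark the proteins that the proteasome degrades, were divided. Of 29 members, 13 had no read left (44.8%, against 47.5% of all 3019). Another 7 had a ratio below 0.5, 5 were kept and 4 were above 2. Otub1 and the deubiquitinases Usp22 (11400 to 929 reads, ratio 0.761) and Uchl1 (1050 to 181, ratio 1.61), an abundant neuronal enzyme, kept their share. The conjugating enzyme Ube2k went from 511 reads to 0, and Ube2b was at a ratio of 3.15. Without Otub1 the summed ratio of the list was 0.900.

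The vacuolar proton pump, which acidifies lysosomes and synaptic vesicles, had 9 members with a median of 483 reads. No read was left for 6 of them (66.7%, against 47.5% of all 3019). These included Atp6v1a (593 reads without run-off), Atp6v1d (578) and Atp6v0b (487). A single subunit, Atp6v1b2, was above 2, with 255 of 512 reads. Lysosome and autophagy mRNAs had 4 of 9 members with no read left (44.4%) and a summed ratio of 0.207. Sqstm1, the autophagy receptor, kept 6 of 467 reads.

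Rab and Arf GTPases, the switches of vesicle traffic, had no read left for 19 of 38 members and a ratio below 0.5 for 14 more. The summed ratio was 0.422. Rab27a went from 5955 to 274 reads (ratio 0.430), Rab3b of synaptic vesicles from 1881 to 7 and Rab14 to 0, whereas Arl8b, which moves lysosomes along axons, was kept with 192 of 2684 reads (ratio 0.668). Arl2, Arf3 and Rab3a were above 2.

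Chaperones had 14 of 26 members with no read left (53.8%, against 47.5% of all 3019), 8 below 0.5, none kept and 4 above 2. Hsp90ab1, the constitutive HSP90, had 230 of 299 reads left, a ratio of 7.18, while the inducible Hsp90aa1 went from 140 reads to 0 and the constitutive Hspa8 from 110 to 0. The co-chaperone Ptges3, the largest member, kept 445 of 12194 reads, a ratio of 0.341. Members of the same chaperone family therefore differed in what was left.

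In the translation machinery the share of members with no read left was not above that of all mRNAs when all members with at least 50 reads were counted. At 200 reads or more it was above for translation factors, with 6 of 13 (46.2%) against 35.4% of all mRNAs with as many reads. For cytosolic ribosomal proteins it was 2 of 10 in that range. Cytosolic ribosomal proteins, with a median of 342 reads, had 5 of 15 members with no read left (33.3%) and 6 more below 0.5. Rps3 kept its share (1561 to 328 reads, ratio 1.96), as did Rpl13a (932 to 138, ratio 1.38), while Rpl8 went from 1084 to 7 reads and Gnb2l1, which encodes the ribosomal scaffold RACK1, from 1524 to 1. Translation factors had 12 of 26 with no read left (46.2%), among them the GTPase-activating initiation factor Eif5 with 966 reads. The elongation factors Eef1b2 (ratio 1.74), Eef2 (1.10) and Eef1a1 (1.37) were kept. Of the subunits of initiation factor eIF3 in the list, Eif3i, Eif3h and Eif3m had no read left.

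Mitochondrial ribosomal proteins, encoded in the nucleus, had no member between 0.5 and 2. Of 24, 10 had no read left (41.7%, against 47.5% of all 3019). Another 12 were below 0.5, with 1 to 4 reads left each, and Mrpl10 and Mrpl12 were above 2. Mrpl43 had the most reads without run-off, 831, and none with it. At 200 reads or more, 6 of 11 had no read left, against 35.4% of all mRNAs with as many reads.

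Respiratory chain mRNAs, whose products make ATP, differed in their ratios. In complex I, 5 of 18 had no read left and 8 were below 0.5. Ndufs7 was kept (1882 to 250 reads, ratio 1.24), and Ndufv1 had 1 read left of 1278. In complexes II to V, 6 of 22 had no read left, 9 were below 0.5, 3 were kept and 4 were above 2. All members of complex II (Sdha and Sdhc) and complex III (Cyc1, Uqcrc1, Uqcrfs1, Uqcr10 and Uqcrh) were below 0.5 or had no read left. So were 15 of the 22 in the whole list (68.2%) and 73.6% of all 3019 mRNAs. The ATP synthase subunits Atp5d (1391 to 661 reads, ratio 4.44), Atp5b (931 to 310, ratio 3.11) and Atp5a1 (351 to 108, ratio 2.87) were above 2, while Atp5c1, which encodes another subunit of the same catalytic head, kept 1 of 806 reads. The summed ratio of these complexes was 1.0, and 1.36 without Cyc1.

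Glycolysis and citric acid cycle enzymes had 10 of 21 members with no read left, near the share of all mRNAs. Pkm and Aldoa, enzymes of glycolysis, were kept at 1.15 and 1.41. Gpi1 (567 reads without run-off), Ldha (495), Dld (333) and Mdh2 (264) had no read left. Pfkm, Eno2, Mdh1 and Tpi1 were above 2, at ratios from 2.73 to 5.45.

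**Figure D4:**
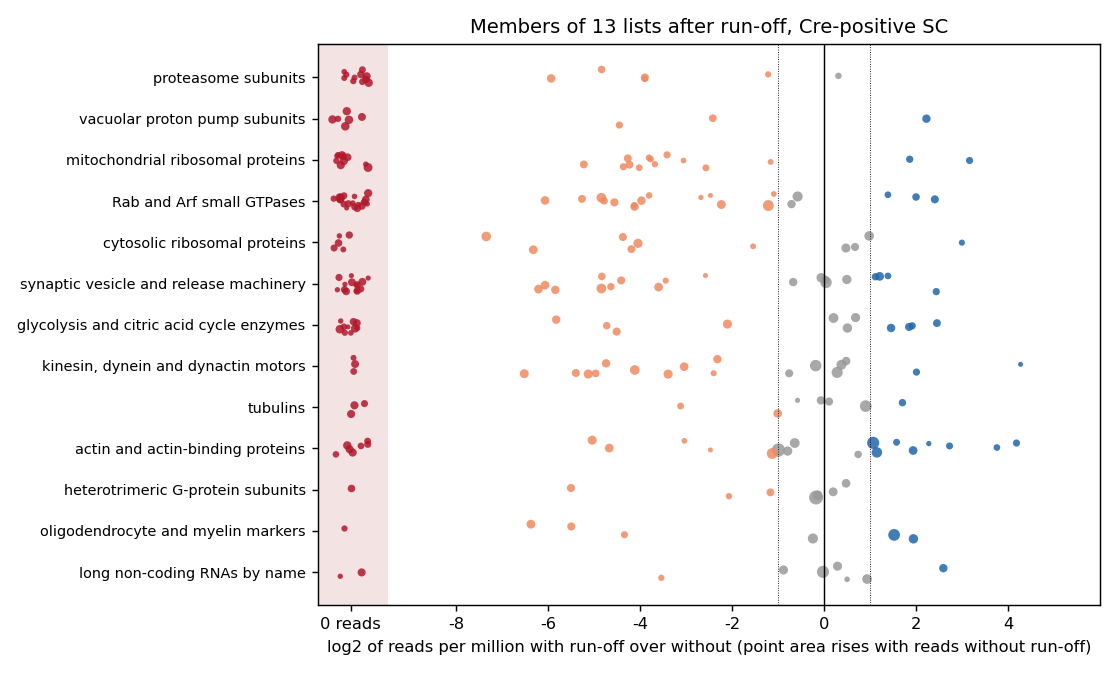
Log2 of the CPM ratio (x axis) of each member of 13 lists, 1 point per mRNA, with larger points for more reads without run-off and mRNAs with 0 reads with run-off in the shaded strip at the left; the dotted lines mark ratios of 0.5 and 2. Members of 1 list lie on both sides, and proteasome subunits have 1 member to the right of the left dotted line.

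Cytoskeletal lists held abundant mRNAs, with a median of 417.5 reads for tubulins and 328.5 for actin and actin-binding mRNAs. Of 10 tubulins, 3 had no read left, 4 were kept and 1 was above 2. Tubb5, a beta-tubulin, went from 14897 to 2974 reads (ratio 1.86) and held most of the reads of the list. Tubb3, the neuronal beta-tubulin, was above 2 with 84 of 242 reads, and Tuba4a and Tubg1 had none left of 426 and 417. Among 24 actin and actin-binding mRNAs, 7 had no read left and 8 were above 2. At 200 reads or more, 2 of 7 tubulins and 3 of 13 actin and actin-binding mRNAs had no read left, against 35.4% of all mRNAs with as many reads. Actb, beta-actin, which is a classic axonally localized mRNA, went from 25807 to 5761 reads, a ratio of 2.08 (2.03 to 2.15). It was higher in Cre-negative SC (20097.4 and 10586.6 FPKM) than in Cre-positive SC (7793.1 and 5683.6 FPKM), so it was present without tagged ribosomes. Sptbn1, a spectrin of the membrane skeleton, was at 2.21, while its partner Sptan1 kept 3 of 926 reads. Actb and Sptbn1 were between 0.5 and 2 under TMM scaling.

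Neurofilament mRNAs, which encode the intermediate filaments of RGC axons, were all below 0.5. Nefl went from 1814 to 12 reads (ratio 0.0618), Ina from 177 to 1, Nefh from 436 to 0 and Nefm from 362 to 0. Microtubule-associated mRNAs of the same list went both ways. Map1b, long known in axons, was kept at 1.19, Mapt, which encodes tau, was above 2 with 54 of 107 reads, and Map1lc3b kept 6 of 1108. Growth-associated mRNAs had 1 of 10 with no read left, Cend1, and 5 kept. Dpysl2, which encodes the collapsin response mediator CRMP2, went from 26749 to 1821 reads (ratio 0.636), and Gap43 from 976 to 35 (ratio 0.335).

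Motor mRNAs, which encode kinesins, dynein and dynactin, had 3 of 20 with no read left, but 10 more were below 0.5. The kept ones were led by Kif1b (11617 to 1091 reads, ratio 0.877) and the dynactin subunit Dctn4 (7685 to 997, ratio 1.21). Kif1a, which carries synaptic vesicle precursors, kept 3 of 983 reads and Kif5a 10 of 984. The median motor mRNA had 508 reads, above the 216 of all mRNAs.

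Of 33 synaptic release mRNAs, 14 had no read left (42.4%, against 47.5% of all 3019). Another 10 were below 0.5, 5 were kept and 4 were above 2. Snap25, a SNARE protein of the presynaptic membrane, kept its share exactly within counting error, with 10406 reads without and 1142 with run-off (ratio 1.02, 0.963 to 1.09). The complexin Cplx2 (0.953) and Vamp1 (1.40), which also act in vesicle fusion, were kept too. Vamp2, the main vesicle SNARE of the forebrain, had 1 read left of 267, and the synapsins Syn1 and Syn2 and dynamin Dnm1 had none.

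Receptor and channel mRNAs were mostly below 0.5, as were 73.6% of all 3019. None of the 6 neurotransmitter receptor mRNAs was kept, where 15.1% of all 3019 were. Grin2b, an NMDA receptor subunit, went from 939 reads to 0, Gabbr1 from 506 to 1 and Grik2 from 204 to 1, and the other members, Gabrb1, Gria2 and Gabra3, with 71 to 97 reads, had none left. At 50 to 99 reads, 60.5% of all mRNAs had none left. Among 17 channel mRNAs, 8 had no read left (47.1%, against 47.5% of all 3019), and 13 were below 0.5 counting these (76.5%). Scn2b, a beta subunit of sodium channels, was the largest, with 24675 reads without and 3294 with run-off (ratio 1.25). Without it the summed ratio of the channel list was 0.603. The plasma membrane calcium pump Atp2b2 was kept at 0.728.

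Abundant mRNAs of signalling proteins differed in their ratios. Of 6 mRNAs for 14-3-3 proteins, adaptors that bind phosphorylated proteins, Ywhae (35473 to 2323 reads, ratio 0.612), Ywhaz (0.682) and Ywhah (0.681) were kept, Ywhag (5046 to 70 reads, ratio 0.130, 0.101 to 0.164) and Ywhab were below 0.5 and Ywhaq had no read left of 235. Of 8 G-protein subunits, 4 were kept, Gnb1, Gnas, Gnao1 and Gnaq, and Gna11 had no read left. Calm3, which encodes calmodulin, was kept at 0.554. Camk2a, an mRNA known from dendrites, was above 2 with 180 of 345 reads, whereas Camk2b kept 1 of 589 and Camk2g and Camk2d none.

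Regulators of gene expression were among the lists with fewer losses. Of 36 transcription factor and chromatin mRNAs, 7 had no read left and 10 were kept. Bhlhe41, a transcriptional repressor of the circadian clock, kept its share with 31775 and 3402 reads (ratio 1.0), and Klf13 with 20432 and 2401 (1.10). RNA-binding proteins had 17 of 47 with no read left. Hnrnpa0 was above 2 (6119 to 1690 reads, ratio 2.58), and Celf4, a neuronal RNA-binding protein, was kept at 1.98, whereas Rbfox1 was lost. Of 42 mRNAs listed as targets of the fragile X protein FMRP, which is known for stalling ribosomes, 12 had no read left (28.6%, against 47.5% of all 3019). Another 12 were below 0.5, 12 were kept (15.1% of all 3019 were) and 6 were above 2. Their median of 504 reads was higher than that of all mRNAs. At 200 reads or more, 7 of 32 had no read left (21.9%), against 35.4% of all mRNAs with as many reads. Whether stalled ribosomes held the kept ones was not tested.

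Axon survival mRNAs had a share of losses near that of all mRNAs. Of 12, 5 had no read left (41.7%, against 47.5% of all 3019), Nmnat2, Nmnat1, Xiap, Bcl2l2 and Casp2. At 200 reads or more it was 2 of 7, against 35.4% of all mRNAs with as many reads. Bcl2l1, which encodes the survival protein Bcl-xL, was kept at 1.33, and so were Mapk10 (0.641) and Map3k12 (0.547), kinases of axonal injury signalling. Bcl2 was above 2. Of 13 mRNAs linked to neurodegeneration, Sod1, superoxide dismutase, had more raw reads with run-off than without, 517 against 390, a ratio of 12.4 (10.8 to 14.2). Park2 was above 2 at 3.52, Pink1 was kept at 0.649 and Optn went from 483 reads to 0. Of 16 mRNAs for ferritin, antioxidant and redox proteins, 7 had no read left (43.75%), among them the peroxiredoxin Prdx6 with 970 reads. Fth1, the ferritin heavy chain, kept 145 of 6460 (ratio 0.210).

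The smaller remaining lists ran as follows. Of 13 ER, Golgi and coat protein mRNAs, 5 had no read left and 4 were kept, among them Canx, an ER chaperone, at 0.724 and Ssr1, a part of the translocon, at 0.925. Of 5 mRNAs for sodium-potassium and calcium pumps, 1 had no read left, and Atp1b1 was above 2 with 317 of 447 reads. Of 6 adhesion molecules, 2 had no read left and 3 were kept.

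Non-coding RNAs carry no coding sequence for a ribosome to elongate on. Of 9 RNAs listed as non-coding by name, 2 had no read left, among them 6330403K07Rik, which the annotation gives as protein-coding, 1 was below 0.5, 5 were kept and 1 was above 2, and the summed ratio was 1.09. Rn45s, the precursor of ribosomal RNA, had 25535 reads without and 2676 with run-off, a ratio of 0.979 (0.940 to 1.02), with the reserve that this gene has many near-identical copies. Malat1, a nuclear RNA, went from 1739 to 354 reads (ratio 1.90) and Meg3 from 515 to 331 (ratio 6.00). Taken by annotation, 37 of the 3019 were non-coding RNAs, most of them antisense or intergenic, with a median of 150 reads, and 22 of these had no read left (59.5%), against 1348 of 2863 protein-coding genes (47.1%), whose median was 219 reads. The share lost was thus not lower among the non-coding RNAs as a class.

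Coding length varied little with what was left. The median coding length of the mRNAs with no read left was 978 bases, of those with reads but a ratio below 0.5 it was 1083, of the kept ones 1125 and of those above 2 it was 1083, each the median over a gene's protein-coding transcripts in GENCODE. Of 722 mRNAs with a coding length under 600 bases, 47.1% had no read left, and of 271 with at least 3000 bases, 42.1%. Whole transcripts were shorter among the lost mRNAs, with a median of 2071 bases against 2575 for the kept ones, and at 200 to 999 reads the medians were 1883 and 2434 bases.

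Markers of cell types gave the makeup of the SC libraries. Of 24 RGC marker genes, 11 had reads without run-off. Pou4f1, a transcription factor of RGCs that SC neurons also express, was kept with 2255 and 329 reads (ratio 1.36), and without it the summed ratio of the members of the list was 0.295. Thy1 had 1 read without and none with run-off, and Slc17a6, the vesicular glutamate transporter of RGCs, went from 58 to 0. Of the 9 RGC markers with at least 50 reads, Pou4f1 was kept, Tubb3 was above 2 and the other 7 were below 0.5. The photoreceptor genes Gnat1 and Pdc, which mark retinal tissue, had 3 reads and 1 read without run-off and none with it.

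Cells of the SC itself were represented too. Myelin markers went from 21242 to 5594 reads, or from 6510.1 CPM to 16010.5 CPM, with Cnp at 15678 and 4799 reads (ratio 2.86, 2.77 to 2.95) and Mbp at 1331 and 545 (ratio 3.82). Over the 7 members of the list with at least 50 reads, the summed ratio was 2.47, and 1.34 without Cnp. Of these 7, 4 were below 0.5 (57.1%, against 73.6% of all 3019). Olig1 went from 777 to 1, Car2 from 423 to 1, and the myelin genes Mal from 190 to 1 and Mobp from 107 to 0. Astrocyte markers, of which 19 of 23 had reads without run-off, had a summed ratio of 1.94 over all 23, with Gja1 at 1.95, Glul at 3.58, Ndrg2 at 7.57 and Aqp4 lost from 273 reads. Cnp stood at 181 and 3128 FPKM in Cre-negative SC and at 653 and 878 FPKM in Cre-positive SC, so it was present without tagged ribosomes. In the list of collicular neuron markers 5 of 8 members had no read left, including Gad1 with 497 reads, Tac1 with 468 and Nrn1 with 151, which is also in the RGC list, and Gata3 and Gad2 were among the kept ones. The 2 globin-list members, Bpgm and Slc25a37, had no read left. The part of cells other than RGCs in these results was not tested.

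The adult libraries of the standard protocol, in which run-off played no part, also set the groups apart. Of the 1434 mRNAs with no read left, 985 (68.7%) were listed at 0 FPKM in both Cre-positive SC libraries. The share was 43.4% of the mRNAs with reads but a ratio below 0.5, 18.2% of the kept ones and 28.5% of those above 2. At 200 to 999 reads without run-off it was 63.8%, 42.6%, 24.1% and 23.9% in that order. The mRNAs lost with run-off were thus also the ones most often missing from other libraries made without it. The same order held in Cre-negative SC, where either library had a value above 0 FPKM for 41.6% of the lost mRNAs, against 84.9% of the kept ones.

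**Figure D5:**
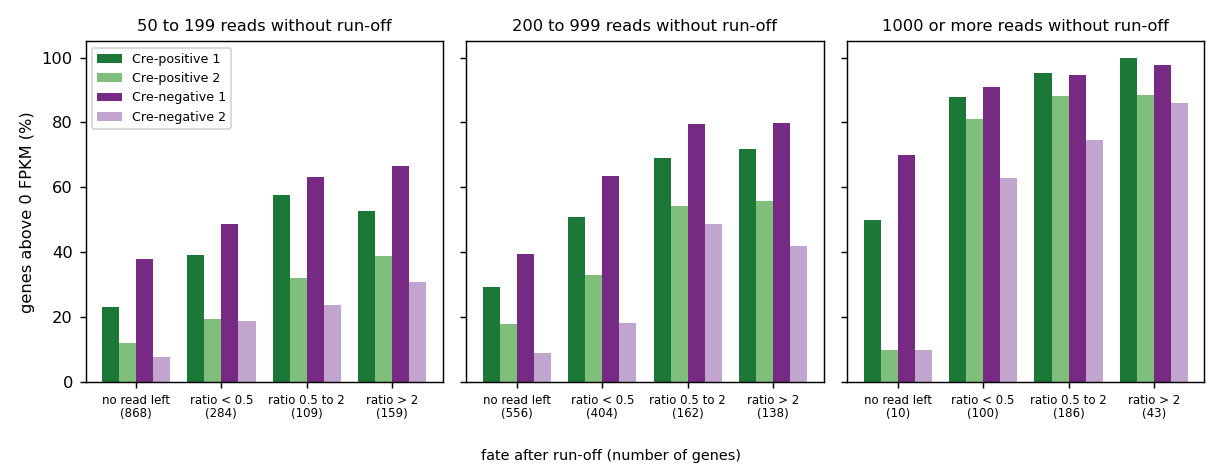
Share of genes above 0 FPKM (y axis, %) in each adult Cre-positive and Cre-negative SC library of the standard protocol, by what was left after run-off (x axis, number of genes in parentheses) and by reads without run-off (panels). In the left and middle panels the mRNAs with no read left were found least often in each of the 4 libraries.

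Replicates without run-off also differed from each other in which genes were found. Of the 500 genes highest in the SC library without run-off, 37 were at 0 with run-off (7.40%). Of the 500 highest in Cre-positive SC replicate 1, 139 were at 0 in replicate 2 (27.8%), and in the other direction 64 (12.8%). Between the Cre-negative replicates it was 36.4% and 18.2%. For the 1000 highest genes the loss with run-off was 23.9%, against 18.5% and 38.0% between the Cre-positive replicates. The SD of the log2 ratio over genes above 0 in both, for the 500 highest, was 2.43 with against without run-off, and 2.96 and 2.41 between the Cre-positive replicates. The number of genes found was 2756 and 1640 in the Cre-positive and 3841 and 1162 in the Cre-negative libraries, and 2764 with run-off. The depth of those 4 libraries is not given by FPKM values, and an FPKM of 0 is not the same as a count of 0 reads.

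In retina the run-off library held 6.72% as many reads as the library without run-off, 315009 against 4686284. Of 3507 genes with at least 50 reads, 1381 had no read left (39.4%), 1867 a ratio below 0.5 (53.2%), 877 a ratio of 0.5 to 2 (25.0%) and 763 a ratio above 2 (21.8%). At 200 to 499 reads without run-off, 51.9% of the SC mRNAs and 18.9% of the retina mRNAs had no read left. Of genes with at least 500 reads, 28.5% of 701 in SC and 3.17% of 537 in retina had 0 to 3 reads with run-off. The band of nearly empty abundant mRNAs was thus larger in SC than in retina in these single libraries, and this difference had no replicate check.

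Which mRNAs were lost overlapped in part between the tissues. Of 1712 genes with at least 50 reads in both, 565 (33.0%) had no read left in SC and 432 (25.2%) in retina, and 230 had none in either, which is 40.7% of the SC genes and 53.2% of the retina genes. For the kept mRNAs, 205 were shared, 53.2% of the SC and 34.6% of the retina genes, while the kept mRNAs were 22.5% of the 1712 in SC and 34.6% in retina. There were 118 genes with no read left in SC and a ratio above 2 in retina, and 46 with the reverse. Over the 945 genes with reads in all 4 libraries, the log2 ratios had Pearson's r of 0.04 and Spearman's rho of 0.06 across genes, which are not replicates and share their 4 libraries. Over the 323 of these with at least 500 reads without run-off in both tissues the values were 0.21 and 0.29.

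Single lists and genes differed between the tissues accordingly. Of 24 proteasome subunits in retina 13 had no read left, but 6 were above 2 and the summed ratio was 1.12, against 0.0660 in SC. Mitochondrial ribosomal proteins had a summed ratio of 2.41 in retina and 0.468 in SC, and cytosolic ribosomal proteins 2.65 and 0.744. The share of mitochondrial ribosomal mRNAs with no read left was nevertheless larger in retina, 14 of 27 against 10 of 24. For cytosolic ribosomal proteins it was 2 of 21 against 5 of 15. The members differed, as the minimum of 50 reads was applied in each tissue. Over all genes that kept a read, the median ratio was 1.29 in retina and 0.507 in SC. Nefl, at 0.0618 in SC, was at 2.27 in retina, with 95 of 622 reads. Nmnat2 kept 1 of 133 reads in retina and Rab14 1 of 338, so both were nearly lost there too. Actb was at 2.0 and Snap25 at 1.07 in retina, close to their values in SC.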

How the data were processed

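Adult SC and retina libraries with and without run-off (1 each) were compared. Reads were mapped to mm10 with TopHat2 2.0.12, and for these 4 libraries the authors deposited HTSeq 0.6.1p1 counts per gene, not normalized. For the 2 Cre-positive and 2 Cre-negative adult SC libraries the authors deposited FPKM from Cufflinks 2.2.1. RNA was amplified by PCR from oligo(dT)-primed cDNA without molecular identifiers, so reads are not independent molecules. Depth was 3262914 and 349395 reads in SC, and 3 counts correspond to 0.919 and 8.59 CPM.

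Members had at least 50 reads without run-off. Ratios used total reads on genes, with 3 counts as the limit for 0. Ratio intervals are Clopper-Pearson 95%. Groups came from the sample labels. No test was run on the run-off libraries, as each condition had 1. Differences of FPKM used a pseudocount of 1. The ratio computation was tested on simulated counts of genes with at least 500 reads, with counting error only. Genes with fewer reads and the effect of PCR copies were not covered by it. GENCODE M21 (GRCm38) symbols matched 2908 members (96.3%), and 2863 had a coding length. Named genes were the 10 members with most reads, the 12 largest with 0 reads left, the 12 highest ratios, the 3 largest of each list with at least 5 members, its members with at least 200 reads that were at 0 or above 2, and the RGC, myelin, astrocyte and globin lists; other list members were added as examples after their values were seen. The members and lists were chosen with earlier results of these data known. Alternatives were other read minimums, scalings and ratio limits. Tools were edgeR 4.0.16 in R 4.3.3, and matplotlib 3.10.9, scipy 1.17.1, pandas 2.3.3 and numpy 2.4.6 in Python 3.11.15. Mitochondrially encoded mRNAs, and the libraries of other stages, were not analysed here. Some of the genes that the rule names are not reported here.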

Additional observations from a re-analysis of the deposited data

Results flagged for a closer look

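A signal was present in genes outside the 3019 mRNAs: 258 genes had no read in SC without run-off and at least 3 reads with it, at or above the limit of 3 counts that a count of 0 allows. Of these, 76 had at least 50 reads with run-off, led by Extl3 with 324 reads, Nup133 with 271 and Chadl with 255, and Nup133 and Chadl were at 0 FPKM in all 4 adult SC libraries of the standard protocol.

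Among the 12 mRNAs with the highest ratios in SC, 10 had more raw reads with run-off in SC and fewer in retina, with 1 library each, and the difference between the tissues was not tested. Their ratios in SC were 40.3 for Minos1, 33.0 for 6430548M08Rik, 31.4 for AI837181, 30.1 for Clasp2, 27.6 for Rbbp6, 26.3 for Zcchc24, 23.9 for Dohh, 22.0 for Ddb1, 20.1 for Rrp7a and 19.8 for Bcl7b. In retina Minos1 went from 29 reads to 0 and Clasp2 from 470 to 17. The 12 were chosen by their ratio in SC, so more reads in SC followed from the choice. Fewer raw reads with run-off were found for 99.4% of the 3507 retina genes with at least 50 reads. As CPM, the retina ratio was 3.72 for AI837181, 2.26 for Ddb1, 1.34 for 6430548M08Rik and 1.09 for Dohh. It was below 1 for the others of the 10.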

How the results depend on the processing

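With a minimum of 200 reads, 1599 mRNAs entered, of which 566 had no read left, 1070 were below 0.5 and 181 were above 2; fewer genes entered by construction. Scaling to the median ratio put 588 mRNAs above 2. A limit of 1.5-fold left 267 mRNAs between the limits, and a limit of 4-fold left 793 between them and 164 above. Counting up to 2 reads as lost raised the lost mRNAs from 1434 to 1901. Minimums of 20 and 100 reads, TMM and the total without the 20 genes with most reads kept each count within 1.5 times its value. The number of lists with more losses than all mRNAs was 7, with 6 to 9 over minimums of 20, 100 and 200 reads, the last added after seeing the data. Lists with a summed ratio above 2 went from 1 to 12 under the median ratio and those below 0.5 from 6 to 3. For the 457 kept mRNAs, the median log2 difference of Cre-positive minus Cre-negative SC was -0.14, and from -0.48 to 0.29 when each replicate was left out in turn; it reversed without Cre-negative replicate 1, at 0.29, and the cause was not tested. No paired analysis was possible because each run-off condition had 1 library and no test. A total without mitochondrially encoded genes was not run, since no such symbol was matched. Single libraries and PCR depth limit every ratio, and genes under about 200 reads most.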
